A study of Homo sapiens with 4 samples.

Results

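The replication-dependent histone genes were examined in ChIP-seq peak lists of H3K4me3, the trimethyl mark on lysine 4 of histone H3 that lies at gene starts, and of WDR5, a subunit of the MLL/SET1 complexes that write this mark. Members were all gene symbols in the 4 peak lists that start with HIST1H, HIST2H, HIST3H or HIST4H, which gave 65 genes of 18576 symbols listed in any file. The clusters held 49 genes in HIST1 on chromosome 6, 12 in HIST2 and 3 in HIST3 on chromosome 1, and HIST4H4 alone on chromosome 12. The 4 samples were RS4;11 and THP-1 cells, each immunoprecipitated once for WDR5 (antibody ab56919, sonicated chromatin) and once for H3K4me3 (antibody ab8580, chromatin cut with micrococcal nuclease), so no group had a replicate and no difference between the lines could be tested. RS4;11 is a B-precursor acute lymphoblastic leukemia line and THP-1 a monocytic acute myeloid leukemia line, and both carry a rearranged MLL gene. Both are established lines grown in the same medium, and the labels name no treatment.

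Replication-dependent histone genes supply the bulk histones that package newly made DNA, and they are transcribed mainly in S phase. They have no introns, and most of their mRNAs end in a stem-loop instead of a poly(A) tail. Many copies encode the same protein: H2A, H2B, H3 and H4 form the nucleosome core, and H1 binds the linker DNA between nucleosomes. H2A and H2B genes often lie back to back and share the stretch between their starts.

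The promoters of 9 genes that the results turn on are shown, as the 120 bases upstream of the start in RefSeq (build GRCh38.p14), because they carry the elements that set the histone types apart. Capitals mark TATAAA (the TATA box), CCAAT (bound by NF-Y), ATTTGCAT (the octamer of H2B promoters, bound by OCT1), GGTCCG (letters of the H4 promoter element bound by HINFP) and AAACACA (the AC box of H1 promoters), each on either strand, and no motif contains another.
HIST1H1C, the only histone gene with a WDR5 peak over its exon, at chr6:26056471-26056590 (minus strand), is followed by 3 H4 genes marked in both lines, HIST1H4E at chr6:26204490-26204609 (plus strand), HIST1H4H at chr6:26285535-26285654 (minus strand) and HIST4H4 at chr12:14771132-14771251 (minus strand).
HIST1H1C: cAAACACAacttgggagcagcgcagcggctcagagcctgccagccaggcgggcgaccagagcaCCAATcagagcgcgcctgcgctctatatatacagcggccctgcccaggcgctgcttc
HIST1H4E: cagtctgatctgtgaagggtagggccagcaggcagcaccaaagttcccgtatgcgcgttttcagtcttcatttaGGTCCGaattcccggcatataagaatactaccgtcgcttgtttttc
HIST1H4H: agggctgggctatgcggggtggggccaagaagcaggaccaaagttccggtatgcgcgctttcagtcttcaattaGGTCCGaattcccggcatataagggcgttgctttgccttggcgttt
HIST4H4: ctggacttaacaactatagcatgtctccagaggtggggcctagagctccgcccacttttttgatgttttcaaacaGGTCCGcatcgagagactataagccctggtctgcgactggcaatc
Then come HIST1H2AE at chr6:26216801-26216920 (plus strand) with its divergent partner HIST1H2BG at chr6:26216689-26216808 (minus strand), marked in both lines, and HIST1H2AJ at chr6:27814778-27814897 (minus strand) with its partner HIST1H2BM at chr6:27814902-27815021 (plus strand), marked in THP-1 cells only.
HIST1H2AE: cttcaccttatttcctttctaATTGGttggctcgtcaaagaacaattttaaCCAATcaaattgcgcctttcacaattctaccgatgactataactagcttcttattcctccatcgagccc
HIST1H2BG: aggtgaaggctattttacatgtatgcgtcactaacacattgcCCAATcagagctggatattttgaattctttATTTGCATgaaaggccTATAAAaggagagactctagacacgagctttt
HIST1H2AJ: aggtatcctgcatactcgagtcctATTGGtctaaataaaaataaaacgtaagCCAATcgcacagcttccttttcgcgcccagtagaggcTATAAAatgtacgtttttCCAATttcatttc
HIST1H2BM: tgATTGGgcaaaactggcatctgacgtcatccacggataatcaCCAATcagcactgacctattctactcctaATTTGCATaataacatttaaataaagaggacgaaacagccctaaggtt
HIST1H3C, an H3 gene that shared a wide peak with HIST1H2BB in both lines, stands at chr6:26045264-26045383 (plus strand).
HIST1H3C: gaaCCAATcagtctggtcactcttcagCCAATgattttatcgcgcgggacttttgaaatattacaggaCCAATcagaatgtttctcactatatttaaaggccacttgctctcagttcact

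RefSeq promoters were matched for 60 of the 65 genes (not HIST1H2AH, HIST1H3J, HIST1H4A, HIST1H4C or HIST2H2BA), and the motifs were counted in the 250 bases upstream of each start on both strands. TATAAA was present in 40 of 60 histone promoters (66.7%) and in 11.1% of all 27305 promoters. CCAAT was found in 50 of 60 (83.3%) and in 33.0% of all promoters, and every matched H1, H2A, H2B and H3 promoter held it, while 2 of 12 H4 promoters did. The octamer ATTTGCAT lay in 13 of 17 H2B and 9 of 14 H2A promoters, in 1 of 12 H3 promoters, in no H1 or H4 promoter, and in 1.66% of all promoters. The starts of divergent H2A and H2B pairs lie 194 to 251 bp apart, so their 250 bases are largely the same stretch. A motif between such starts was therefore counted for both genes. HIST1H2AE held the octamer in its 250 bases but not in the 120 shown, where its partner HIST1H2BG held it. GGTCCG lay in 11 of 12 H4 promoters and in 9.33% of all, and AAACACA in 5 of 5 H1 promoters and in 4.95% of all. The motifs thus differed by histone type. Between genes marked and unmarked by H3K4me3, CCAAT was present in 19 of 26 promoters of genes marked in either line (73.1%) and in 31 of 34 of the unmarked (91.2%), and H4 genes, of which most lack it, made up 9 of the 26 and 3 of the 34. TATAAA was present in 19 of 26 and 21 of 34, and ATTTGCAT in 9 of 26 and 14 of 34. GGTCCG was present in 9 of 26 and 5 of 34. Within H4, whose genes were the most often marked, it was found in 9 of 9 marked and 2 of 3 unmarked genes.

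An H3K4me3 peak lay in an exon of 20 of the 65 histone genes (30.8%) in the RS4;11 list and of 26 (40.0%) in the THP-1 list, by the exon flag on the lines of the files. That flag marks a peak lying in an exon of the transcript named on its line. Over all 18576 listed symbols the shares were 60.0% and 66.2%, so histone genes were listed with an exon peak less often than the rest in both lines. Marked in both lines were 18 histone genes (27.7%, against 52.1% of all symbols), and 37 (56.9%) had no exon peak in either. With the 5′ end of the reference gene inside a peak as the measure, 17 of 68 protein-coding histone genes (25.0%) were marked in RS4;11 and 21 (30.9%) in THP-1 cells, where all 20163 protein-coding genes gave 49.0% and 52.7%.

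A missing peak in these lists cannot be read as missing H3K4me3. No H3K4me3 peak in either file reached 4500 bp: the widest was 4478 bp in RS4;11 and 4446 bp in THP-1 cells, while 465 and 277 peaks were 4000 bp or wider. ACTB, GAPDH, EEF1A1 and TUBA1B, which are active in most cells and were chosen after the lists had been seen, had no exon peak in either line. Whether wider peaks were taken out was not tested. The markers of cell type did not follow the lines either: 3 of 8 B-lineage markers had an exon peak in RS4;11 and 5 of 8 in THP-1 cells, and of 8 monocytic and myeloid markers 5 had one in RS4;11 and 4 in THP-1 cells. PAX5 and EBF1, which define B cells, had an exon peak in THP-1 cells and none in RS4;11 cells. The labels name the cell lines as used here, but give the other leukemia type for the H3K4me3 sample of RS4;11 cells. What lies behind the label and the marker pattern was not tested. The files hold no read counts, so depth is unknown and peaks could not be weighted by height.

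The histone types differed in how often they were marked, as the plot of counts by histone type shows. Of 14 H4 genes, which encode the most conserved core histone, 10 had an exon peak in RS4;11 and 11 in THP-1 cells. Of the 51 other genes, 10 and 15 had one. H2A genes stood at the other end, with 1 of 15 in RS4;11 and 3 of 15 in THP-1 cells. H2B genes had 4 and 7 of 18, H3 genes 4 and 3 of 13, and H1 genes 1 and 2 of 5. By the exon flag, H4 lay above and H2A below the other core histones in both lines. The exon-flag shares for H4 were the only ones above those of all symbols. With the 5′ end inside a peak as the measure, H4 had 8 and 9 of 13 matched genes marked. H2A then had 1 and 3 of 15, H2B 3 and 3 of 16, and H3 4 and 3 of 13. By that measure H4 was still the highest core histone, but H2A was not the lowest in THP-1 cells. Genes of 1 cluster can share a peak, so they are not independent observations.

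**Figure D1:**
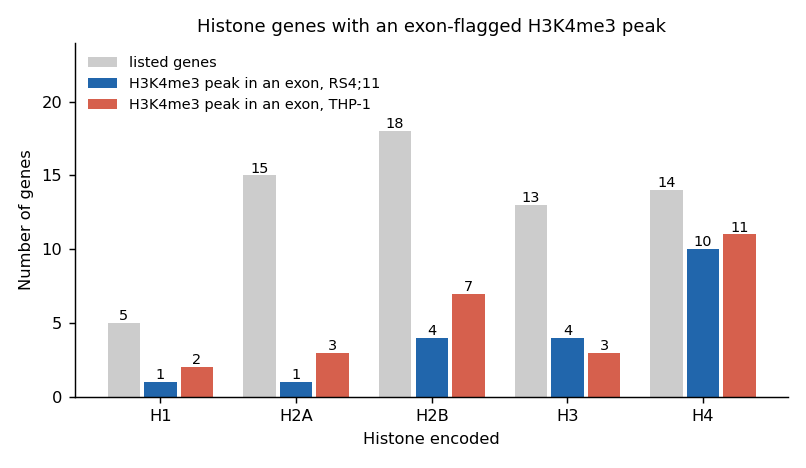
Number of genes (vertical axis) by the histone they encode, with all listed genes in grey, genes with an H3K4me3 peak in an exon in RS4;11 cells in blue and in THP-1 cells in red. H4 genes had 10 and 11 of 14 marked, and H2A genes 1 and 3 of 15.

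The H4 genes marked in both lines were HIST1H4A, HIST1H4B, HIST1H4C, HIST1H4D, HIST1H4E, HIST1H4F, HIST1H4H, HIST1H4J, HIST1H4K and HIST4H4. HIST1H4I was marked in THP-1 cells only, by a peak of 2192 bp. HIST1H4E had the widest histone gene peak in RS4;11 cells (4217 bp, chr6:26203872-26208088, hg19), and in THP-1 cells its peak was 3002 bp. HIST1H4C had the narrowest in both, 1679 bp in RS4;11 and 994 bp in THP-1 cells. HIST1H4J was flagged in both lines although its peak began 227 bp (RS4;11) and 220 bp (THP-1) past the annotated 5′ end, so that the peak covered the 3′ part of the gene. Unmarked in both were HIST1H4G, whose 5′ end lay 5416 bp and 5299 bp from the nearest peak, and the near-identical copies HIST2H4A and HIST2H4B.

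Many H2A and H2B genes are arranged as divergent pairs, and 11 pairs with both genes listed had starts 194 to 251 bp apart (median 240.0 bp). In RS4;11 cells 1 pair was marked at both genes, HIST1H2AE with HIST1H2BG, by a peak of 3933 bp (chr6:26215025-26218957). In THP-1 cells 2 pairs were, the same pair by 3371 bp and HIST1H2AJ with HIST1H2BM by 3518 bp. Paired genes were marked in 2 of 22 cases in RS4;11 and 5 of 22 in THP-1 cells, and the other H2A and H2B genes in 3 and 5 of 11. The fifth paired gene in THP-1 cells was HIST1H2BK, whose flagged peak belonged to an exon outside its canonical transcript and lay 6055 bp from its 5′ end. HIST1H2BD, also flagged in THP-1 cells only, was likewise marked outside the canonical transcript, by a peak of 3290 bp (chr6:26170964-26174253) that was not the peak nearest to its 5′ end.

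H3 genes encode the protein that carries the mark itself. HIST1H3A shared a peak with HIST1H4A in both lines, 3337 bp in RS4;11 and 2740 bp in THP-1 cells, and HIST1H3C shared one with HIST1H2BB, 4152 bp and 3952 bp. HIST1H3E was marked in RS4;11 cells only, by a peak of 3075 bp (chr6:26222556-26225630). A THP-1 peak of 770 bp lay wholly within that stretch but ended 815 bp before the 5′ end of the gene. HIST1H3B, with HIST1H2AB on the same strand 1519 bp away, was marked in THP-1 cells only, by the widest histone gene peak of that line (4004 bp, chr6:26030957-26034960). In RS4;11 cells the 5′ end of HIST1H3B lay 3426 bp from the nearest peak and that of HIST1H2AB 4945 bp.

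Of the linker histone genes, HIST1H1C, which encodes H1.2, had an exon peak in both lines, 4142 bp in RS4;11 and 3677 bp in THP-1 cells. HIST1H1D, which encodes H1.3, had one in THP-1 cells only, of 3079 bp, and in RS4;11 cells its 5′ end was 4853 bp from the nearest peak. HIST1H1A, HIST1H1E and HIST1H1T had none in either line. The distance from the 5′ end to the nearest peak was 2180 bp and 2348 bp for HIST1H1A, 26587 bp and 6866 bp for HIST1H1E, and 3137 bp and 3385 bp for HIST1H1T, in RS4;11 and THP-1 cells in turn. HIST1H1B was on no line of any file. Among the histone genes known for expression in testis, HIST1H1T and HIST3H3 were listed without an exon peak, and HIST1H2AA and HIST1H2BA were on no line. The nearest peak to the shared promoter of HIST1H2AA and HIST1H2BA was far off in both lines, 234620 bp from the start of HIST1H2BA in RS4;11 cells and 188235 bp from that of HIST1H2AA in THP-1 cells.

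By cluster, the HIST1 genes were the most often marked of those with several members, 17 of 49 in RS4;11 and 24 of 49 in THP-1 cells. The blocks of HIST1 are separated by long stretches without histone genes, and the map of the blocks shows them with the peaks. The first block, from HIST1H1A to HIST1H4H (chr6:26017260-26285762, hg19), held 32 genes, of which 15 were marked in RS4;11 and 18 in THP-1 cells. The second, from HIST1H2BJ to HIST1H2AH (chr6:27100095-27115341), held 5 genes, none of them marked in RS4;11 and 2 in THP-1 cells, both by 1 peak. The third, from HIST1H2BL to HIST1H2BO (chr6:27775257-27861669), held 12 genes with 2 and 4 marked. Within the first block, no peak was listed in RS4;11 cells over 77917 bp between HIST1H4C and HIST1H2BE, a stretch that holds HIST1H1T, HIST1H2BC, HIST1H2AC, HIST1H1E and HIST1H2BD.

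**Figure D2:**
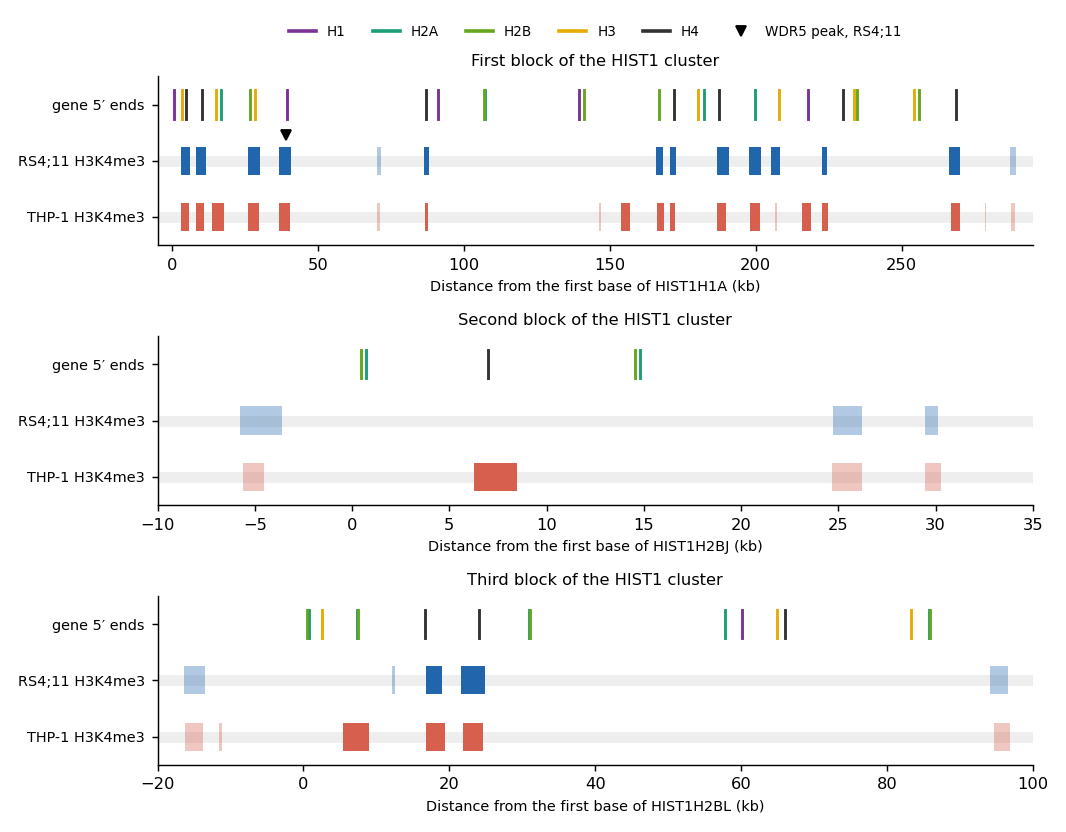
Position along the 3 blocks of HIST1 on chromosome 6, in kb from the first base of the first gene of each block. Coloured ticks are the 5′ ends of protein-coding histone genes by type (HIST1H2BF, HIST1H2BG and HIST1H4F were not matched in the reference and have no tick), boxes are H3K4me3 peaks on a histone gene line, dark with an exon flag and pale without, and the black triangle is the single WDR5 peak. The second block had dark boxes in THP-1 cells only, and the end of the third block had none in either line.

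HIST2 had 2 of 12 genes marked in RS4;11 and 1 in THP-1 cells. The RS4;11 peak (chr1:149783599-149785647, 2049 bp) covered the 5′ ends of HIST2H2BF and HIST2H3D. The THP-1 peak (chr1:149782145-149783449, 1305 bp) did not overlap it: it was flagged for HIST2H2BF alone, 476 bp downstream of its 5′ end, and left HIST2H3D unmarked. This cluster contains inverted copies, and the authors kept only reads with a unique alignment. Of the 32-base words of HIST2H2AA3, HIST2H2AA4, HIST2H3A, HIST2H3C, HIST2H4A and HIST2H4B with 500 bp to each side, 0.0% occurred once in the genome, and the share was 16.8% for HIST2H3D and 25.1% for HIST2H2BF. None of the 6 copies had an exon peak in either line, and their state is uncertain. HIST2H2BA, a pseudogene far from the rest of the cluster, had no exon peak either, with a THP-1 peak of 428 bp lying 642 bp from its 5′ end. In THP-1 cells, peaks of 3123 bp and 2601 bp stood between HIST2H2AA3 and HIST2H2AA4, 435 bp and 603 bp from their 5′ ends, in sequence that was 95.6% and 95.1% unique. RS4;11 cells had no peak there. In HIST1, unique words made up a median of 96.0% at the 23 matched genes marked in either line and 91.6% at the 23 unmarked, with lowest values of 59.4% (HIST1H4J) and 66.3%. The part of read alignment in the missing peaks was not tested.

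HIST3, with HIST3H3, HIST3H2A and HIST3H2BB, had no exon peak in either line. HIST3H2A and HIST3H2BB form a divergent pair 230 bp apart, and in THP-1 cells peaks of 1201 bp and 2076 bp lay to either side, 11376 bp and 5375 bp from the 5′ end of HIST3H2A. In RS4;11 cells the nearest peak to that gene was 21065 bp away. HIST4H4 was marked in both lines, by 2821 bp (chr12:14922275-14925095) in RS4;11 cells and 3300 bp (chr12:14921620-14924919) in THP-1 cells. HIST4H4 was the only gene of its cluster, so the cluster was marked in full.

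The histone gene peaks were wide. The median over the 16 distinct exon-flagged peaks in RS4;11 cells was 3186 bp (narrowest 1679, widest 4217), against 1391 bp for all H3K4me3 peaks and 2359 bp for all 11308 peaks with an exon flag. Over the 20 in THP-1 cells it was 2902 bp (994 to 4004), against 1241 bp and 2149 bp. Peaks over the 5′ end of any protein-coding gene had medians of 2555 bp and 2388 bp. In RS4;11 cells 9 of 16 histone gene peaks (56.2%) were 3000 bp or wider, as were 25.2% of all exon-flagged peaks, and in THP-1 cells 10 of 20 were, against 19.8%. The 14 and 21 peaks that were listed near a histone gene without its exon flag had medians of 1416 bp and 1371 bp. The medians of the exon-flagged histone peaks were thus above those of exon-flagged peaks in general in both lines, within a range that ended below 4500 bp for every peak.

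**Figure D3:**
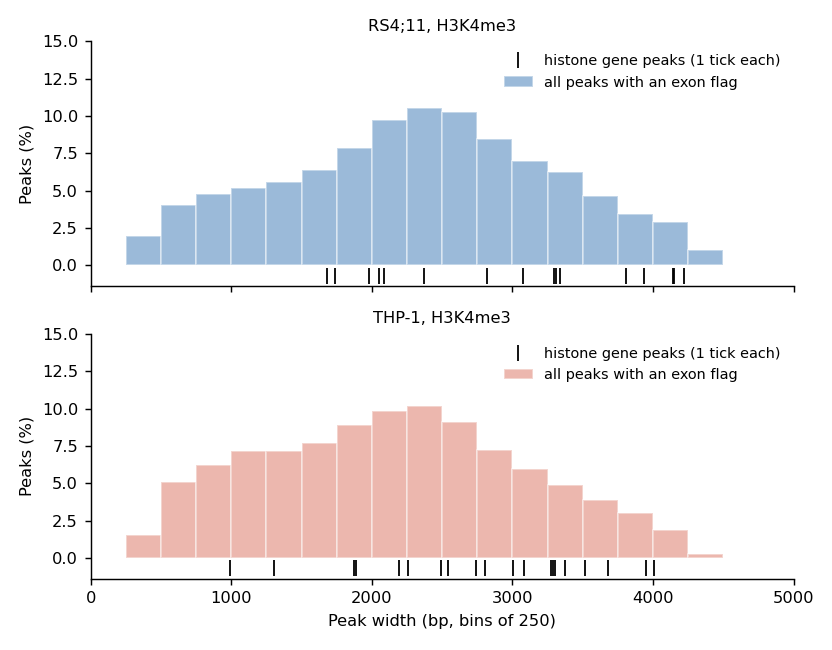
Distribution of H3K4me3 peak widths in bins of 250 bp, as the percent of all exon-flagged peaks in RS4;11 cells (top) and THP-1 cells (bottom), with each histone gene peak as a black tick under the bars. In both lines the bars stop short of 4500 bp, and the histone ticks run from 1679 to 4217 bp in RS4;11 and from 994 to 4004 bp in THP-1 cells.

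The 5 widest histone gene peaks in RS4;11 cells were those of HIST1H4E, HIST1H2BB with HIST1H3C, HIST1H1C, HIST1H2AE with HIST1H2BG, and HIST1H4H, from 4217 down to 3811 bp. In THP-1 cells they were those of HIST1H2AB with HIST1H3B, HIST1H2BB with HIST1H3C, HIST1H1C, HIST1H2AJ with HIST1H2BM, and HIST1H2AE with HIST1H2BG, from 4004 down to 3371 bp. The 5 narrowest in RS4;11 cells belonged to HIST1H4J, HIST2H2BF with HIST2H3D, HIST1H4D, HIST1H4F and HIST1H4C (2088 to 1679 bp), and in THP-1 cells to HIST1H2BK with HIST1H4I, HIST1H4D, HIST1H4F, HIST2H2BF and HIST1H4C (2192 to 994 bp). The transcripts themselves are short, 731 bases for HIST1H1C and 412 for HIST1H4E, and the peaks of these 2 genes ran past both ends of the transcript in both lines. Where the 5′ end was inside, the peak reached a median of 1298 bp upstream and 1716 bp downstream of it in RS4;11 cells (17 genes), and 914 and 1691 bp in THP-1 cells (20 genes). The 5′ ends outside any peak lay a median of 10322 bp from the nearest one in RS4;11 cells (45 genes, 227 to 38523 bp) and 5715 bp in THP-1 cells (42 genes, 220 to 19937 bp). The peak centre lay downstream of the 5′ end at 11 of 17 and 14 of 20 genes.

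No peak carried the exon flag of 3 or more histone genes. Peaks flagged for 2 were 4 of 16 (25.0%) in RS4;11 and 6 of 20 (30.0%) in THP-1 cells, against 11.5% and 9.94% of all exon-flagged peaks that were flagged for 2 or more genes of any kind. Those of both lines were HIST1H3A with HIST1H4A, HIST1H2BB with HIST1H3C, and HIST1H2AE with HIST1H2BG. HIST2H2BF with HIST2H3D was found in RS4;11 cells only, and HIST1H2AB with HIST1H3B, HIST1H2AJ with HIST1H2BM and HIST1H2BK with HIST1H4I in THP-1 cells only. These pairs joined different histones in every case, and 2 of them, HIST1H2AE with HIST1H2BG and HIST1H2AJ with HIST1H2BM, were divergent partners. Peaks holding the 5′ ends of 2 or more histone genes were 3 in RS4;11 and 4 in THP-1 cells. The peak of HIST1H2BK with HIST1H4I held only the 5′ end of HIST1H4I. HIST1H2BG was not matched in the reference, so its pair could not be counted by that measure.

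Between the lines, 15 of 16 histone gene peaks of RS4;11 cells (93.8%, exact Clopper-Pearson 95% interval 69.8 to 99.8%) overlapped an H3K4me3 peak of THP-1 cells, as did 80.1% of all exon-flagged peaks of RS4;11 cells. In the other direction it was 14 of 20 (70.0%, 45.7 to 88.1%) against 71.4%. The intervals cover counting error over peaks only. The exception in RS4;11 cells was the peak of HIST2H2BF and HIST2H3D. Of the 15 overlapping pairs, 12 were wider in RS4;11 cells, with a median difference of 495 bp. The whole lists held 13179 pairs in which 1 peak of each line overlapped. Of these, 52.7% were wider in RS4;11 cells and the median difference was 29 bp. The sets are unlike: the 15 pairs started from RS4;11 peaks with an exon flag, and the 13179 needed no flag. All exon-flagged peaks had a median of 2359 bp in RS4;11 and 2149 bp in THP-1 cells. The wider RS4;11 peaks can therefore not be called particular to histone genes. Among the 15 pairs, the largest differences were 2305 bp at HIST1H3E, where the narrower THP-1 peak carried no exon flag, and 1215 bp at HIST1H4E. HIST4H4, HIST1H4J and HIST1H4F had the wider peak in THP-1 cells, with RS4;11 minus THP-1 widths of -479, -452 and -134 bp. The differences have no replicate check, because each line had 1 library.

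**Figure D4:**
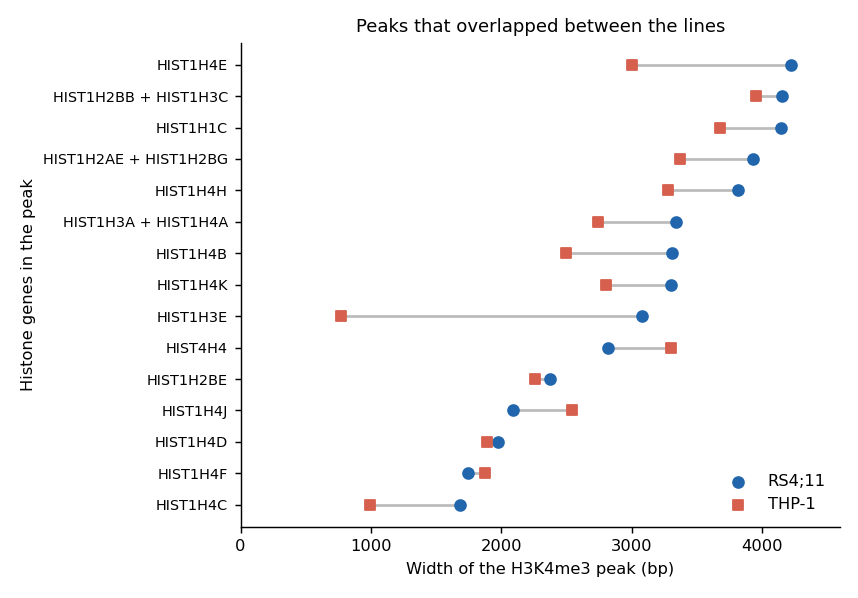
Width in bp of the 15 histone gene peaks of RS4;11 cells (blue circles) and of the THP-1 peak that overlapped each (red squares), ordered by the RS4;11 width, with the genes flagged for the peak on the vertical axis. The blue circle lay to the right at 12 of 15, and the longest line is that of HIST1H3E, 3075 against 770 bp.

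Marked in RS4;11 cells only were 2 genes, HIST1H3E and HIST2H3D (3.08% of 65, against 7.84% of all symbols). Marked in THP-1 cells only were 8 genes, HIST1H1D, HIST1H2AB, HIST1H2AJ, HIST1H2BD, HIST1H2BK, HIST1H2BM, HIST1H3B and HIST1H4I (12.3%, against 14.1% of all symbols). Both shares were taken over all listed genes, and 37 of the 65 histone genes (56.9%) had no exon peak in either line. The lower shares therefore do not show that marked histone genes differed less between the lines than other marked genes. Among marked histone genes, 18 were marked in both lines, 2 in RS4;11 cells only and 8 in THP-1 cells only. Among all marked symbols these counts were 9686, 1456 and 2618. All 8 histone genes flagged in THP-1 cells only lay in HIST1. With the 5′ end inside a peak as the measure there were 6, without HIST1H2BD and HIST1H2BK. THP-1 cells also had lines for all 65 genes within 20 kb of an H3K4me3 peak and RS4;11 cells for 58. Of all 18576 symbols, 17441 had such a line in THP-1 and 16329 in RS4;11 cells, so most genes of any kind did. The 7 histone genes without a line in RS4;11 cells were HIST1H1E, HIST2H2AA3, HIST2H2AA4, HIST2H3A, HIST2H3C, HIST3H2A and HIST3H2BB. These became members through the THP-1 list alone, so the full count in THP-1 cells follows in part from the membership rule.

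WDR5 was listed at the histone genes in RS4;11 cells only, by 1 peak of 703 (chr6:26056140-26056723, hg19, 584 bp). It carried the exon flag of HIST1H1C and lay within 20 kb of HIST1H3C and HIST1H2BB. These 3 genes were 4.62% of the 65, against 4.70% of all symbols on a WDR5 line in RS4;11 cells. No histone gene was on any of the WDR5 lines of THP-1 cells, where 1.70% of all symbols were, and the nearest of the 225 peaks of that line was 125198 bp from the start of HIST3H2BB. At 584 bp the peak was wider than 98.3% of WDR5 peaks in RS4;11 cells, whose median was 393 bp. It reached from 25 bp upstream to 558 bp downstream of the HIST1H1C 5′ end and covered 76.5% of the 731-base transcript. It lay inside the H3K4me3 peak of HIST1H1C in the same line, with the centres 506 bp apart. Of all WDR5 peaks in RS4;11 cells 8.25% overlapped an H3K4me3 peak, and of the exon-flagged H3K4me3 peaks 0.283% overlapped a WDR5 peak, 1 of them among the 16 at histone genes. The same stretch was covered by H3K4me3 in THP-1 cells with no WDR5 peak listed.
The middle of the WDR5 peak lies within the coding sequence, and 200 bases of it (chr6:26056332-26056531, hg19, minus strand) are shown with each CG dinucleotide in capitals, since MLL-family complexes act at CG-rich starts.
HIST1H1C coding sequence: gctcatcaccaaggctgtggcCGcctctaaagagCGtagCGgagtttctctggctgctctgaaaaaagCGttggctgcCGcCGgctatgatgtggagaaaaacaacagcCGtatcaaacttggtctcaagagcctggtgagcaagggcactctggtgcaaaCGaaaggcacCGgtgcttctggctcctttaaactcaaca
This stretch held 9 CG dinucleotides. Over the whole WDR5 peak the G+C content was 58.0% and CG stood at 0.773 of the number expected from base composition, against 45.3% and 0.574 over the RS4;11 H3K4me3 peak, and 39.6% and 0.225 over chromosome 6.

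**Figure D5:**
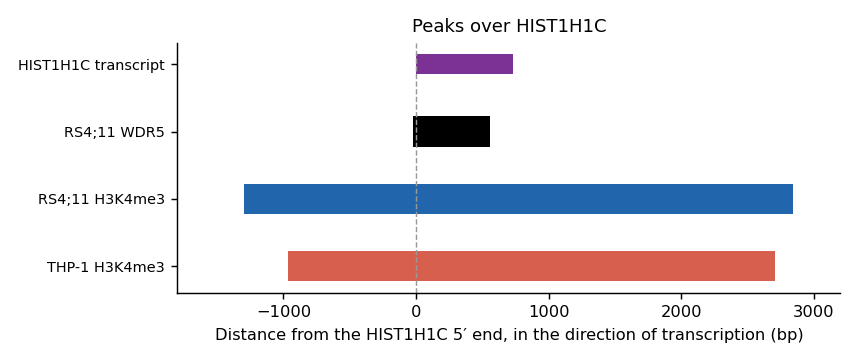
Extent of the HIST1H1C transcript, the RS4;11 WDR5 peak and the H3K4me3 peaks of both lines, in bp from the 5′ end of HIST1H1C in the direction of transcription. The WDR5 peak reaches from 25 bp upstream to 558 bp downstream, inside H3K4me3 peaks of 4142 bp (RS4;11) and 3677 bp (THP-1).

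Histone genes outside the clusters, which encode replacement histones, many of them made outside S phase, were set beside the members. Of 11 such genes 6 had an exon peak in RS4;11 and 5 in THP-1 cells. H3F3B (H3.3), H1FX and H2AFJ were marked in both lines, H3F3B by 3892 bp and 3743 bp. H2AFY (macroH2A), H1F0 (H1.0) and CENPA (the H3 of centromeres) were marked in RS4;11 cells only, and H2AFX (H2A.X, phosphorylated at DNA breaks) and H2AFZ (H2A.Z) in THP-1 cells only. The 5′ end of H1F0 lay outside any peak in both lines, 1932 bp from the nearest in RS4;11 and 1748 bp in THP-1 cells. H3F3A and H2AFV had no exon peak in either line, and H3F3C was on no line. H2AFJ lies beside HIST4H4, and its peak was 694 bp in RS4;11 and 3209 bp in THP-1 cells. Of 11 genes for factors of histone gene transcription and 3′ end processing, 9 had an exon peak in RS4;11 and 8 in THP-1 cells. CASP8AP2, LSM10, LSM11, ZNF473, HINFP, CPSF3, CPSF2 and SYMPK were marked in both, E2F1 in RS4;11 cells only, and NPAT, the coactivator of the clusters, and SLBP, which binds the mRNA stem-loop, in neither.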

How the data were processed

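The 4 peak lists analysed were 1 for each antibody and cell line. Per the methods of the study, the authors aligned reads to hg19 with Eland, kept unique alignments and called peaks with MACS at default settings. CASAVA 1.7 and 1.8.2 are named in the submitters' processing notes. The MACS version, input libraries and read length are not given in the sources used here. The deposited files hold 1 line per peak and transcript within 20 kb, with flags for upstream, downstream, exon and intron, and no counts, heights or p-values, so depth is unknown. Lines were reduced to distinct peaks with Python 3.11.15 and numpy 2.4.6. Genes were matched through RefSeq names to GENCODE release 44 lifted to GRCh37 (62 of 65, without HIST1H2BF, HIST1H2BG and HIST1H4F). The flags matched the reference: all 18 and 22 of 24 flagged genes overlapped the canonical transcript in RS4;11 and THP-1 cells. Words of 32 bases were counted over both strands of GRCh37. Overlap meant 1 shared bp. No test was run, since each group has 1 sample. Interval and motif steps were tested on simulated data. Leukemia types follow the paper, because the labels give the other type for WDR5 in THP-1 and for H3K4me3 in RS4;11. The named genes were those marked in 1 line, the 5 widest and narrowest peaks, genes on WDR5 lines, linker and testis histones and whole small clusters. Members and lists were chosen with earlier results of these data known.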

Additional observations from a re-analysis of the deposited data

How the results depend on the processing

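In place of the exon flag, any line within 20 kb gave 58 histone genes in RS4;11 cells, 65 in THP-1 cells, 58 in both lines and 0 in RS4;11 cells only. Of all 18576 symbols, 16329 had such a line in RS4;11 and 17441 in THP-1 cells. Without the genes under 50% unique sequence, an alternative chosen after seeing the data, 1 gene was marked in RS4;11 cells only, HIST1H3E. Of 40 values under the alternatives, the other 35 stayed within 1.5 times the count, or within the 95% interval of the median or share. With the 5′ end inside a peak, 17 and 20 listed genes were marked, with 3 in RS4;11 cells only and 6 in THP-1 cells only. The 3 were HIST1H3E, HIST2H3D and HIST2H2BF. Joining peaks within 500 bp left both median widths as they were, and over all peaks on a histone line the medians were 2121 bp in RS4;11 and 2255 bp in THP-1 cells. The 95% intervals of the main medians were broad, 2049 to 3933 bp and 2255 to 3300 bp, so both values counted as within them. In RS4;11 cells 2121 bp lay below the 2359 bp of all exon-flagged peaks, and in THP-1 cells 2255 bp lay above their 2149 bp. These sets are unlike, because the peaks on a histone line include some without an exon flag. All H3K4me3 peaks, flagged or not, had medians of 1391 bp in RS4;11 and 1241 bp in THP-1 cells. The count of WDR5 peaks was 1 and 0 under every alternative. No paired analysis was possible because each group has 1 sample and no result comes from a test. Depth is unknown, so a peak that is not listed cannot be told from one under the authors' threshold.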
